A study of Mus musculus with 12 samples.

Results

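Oas1a, Oas2, Oas3, Oasl1, Oasl2, Ifit1, Ifit2, Ifit3, Mx1 and Mx2 are mouse genes of the antiviral response to interferon. Their RNA is described here in bone marrow-derived macrophages that met LPS, a cell wall component of bacteria, after contact with HDL, cyclodextrin or neither. Every probe whose platform annotation carries 1 of these 10 symbols was taken, which gave 17 of the 45281 probes on the array and 10 of its 19057 named genes. Oasl1 and Oasl2 have 3 probes each, Oas3, Ifit2 and Ifit3 have 2, and the other 5 genes have 1. Probes of a gene are numbered by their mean signal, probe 1 being the brightest. The 12 bead arrays fall into 4 groups of 3. Cells of the cyclodextrin group met 4% cyclodextrin, a sugar ring that draws cholesterol out of membranes, for 4 h, were washed, and then received LPS at 10 ng/ml for 6 h. Cells of the HDL group met HDL, the lipoprotein that accepts cholesterol from cells, at 300 ug/ml for 24 h before the wash and the same LPS. The other two groups received PBS with LPS and PBS without LPS. The labels write the lipoprotein as nHDL without spelling out the n. All cells came from C57BL/6 mice aged 9 to 16 weeks and had been differentiated for 8 to 9 days in medium with 20% supernatant of L929 cells. The labels give no contact time for PBS, so in the comparisons with PBS the compound cannot be told apart from contact time and handling. No label says that the 3 arrays of a group came from separate animals or cultures, and 1 label field gives all 3 the same replicate number. Each p-value thus reflects the spread of these 3 arrays per group, which could be technical.

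As background, engagement of TLR4 by LPS in macrophages leads through the adaptor TRIF to the transcription factor IRF3 and to secretion of interferon-beta. The interferon receptor then activates ISGF3, a complex that includes STAT2 and IRF9, which binds the interferon-stimulated response element (ISRE) in the promoters of antiviral genes. OAS enzymes sense double-stranded RNA and make 2-5A, a short chain of adenylates that acts as an antiviral signal. IFIT proteins bind foreign RNA or translation factors, and Mx proteins are dynamin-like GTPases that block virus replication.

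The genes lie in family clusters. In the RefSeq annotation of GRCm38.p6, Oasl2 and Oasl1 are neighbours on chromosome 5 with 0 other protein-coding genes between their starts. Elsewhere on chromosome 5, Oas2, Oas3 and Oas1a bracket 5 further protein-coding genes, all of them of the Oas1 group. On chromosome 19, Ifit2, Ifit3 and Ifit1 bracket 3 others, Ifit1bl1, Ifit3b and Ifit1bl2. Mx1 and Mx2 lie on chromosome 16 with 1 other, Fam3b, between them. RefSeq lists both Mx1 and Mx2 as transcribed pseudogenes in this assembly, which is of C57BL/6J mice, and the other 8 members as protein-coding.

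Promoter windows of 300 bases around the gene start were at hand for 7 of the members (RefSeq, GRCm38.p6), Oas2, Mx1 and Mx2 not being among them. These 7 genes had 8 windows, with more than 1 for Ifit2. The core of the ISRE, GAAANNGAAA on either strand, was found in 4 of the 8 windows, from 4 genes, against 3.44% of all 32851 such windows. Those stretches are shown because they carry the element through which ISGF3 is known to act, with the matches in capitals and each sequence on the strand of its gene. The Oas1a stretch is chr5:120907510-120907565 (minus strand) and holds 2 matches that overlap, starting 20 and 14 bases before the gene start. The Oas3 stretch is chr5:120777705-120777754 (minus strand), with 1 match 75 bases before the start. The Ifit1 stretch is chr19:34640765-34640833 (plus strand), with 2 matches on the opposite strand, 104 and 85 bases before the start. The Ifit3 stretch is chr19:34583353-34583436 (plus strand), with 2 matches on the opposite strand, 156 and 122 bases before the start.
Oas1a: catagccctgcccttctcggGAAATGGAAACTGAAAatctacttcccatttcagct
Oas3: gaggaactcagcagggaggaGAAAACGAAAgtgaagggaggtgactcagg
Ifit1: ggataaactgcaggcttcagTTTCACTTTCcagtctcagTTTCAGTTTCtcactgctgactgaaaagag
Ifit3: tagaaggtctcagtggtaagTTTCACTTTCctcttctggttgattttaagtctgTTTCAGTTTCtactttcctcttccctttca
Both Ifit matches pair the same 2 letter strings, TTTCACTTTC upstream and TTTCAGTTTC downstream. The windows of Oasl1, Oasl2 and Ifit2 held no match to these letters. TTCNNNGAA, the letters of the interferon-gamma activation site, was found in 2 of the 8 member windows (Oas1a and Ifit2) and in 8.30% of all windows. GGGNNNNNCC, an NF-kB motif, was found in 5 of the 8 member windows (Oasl1, Oas1a, Oas3, Ifit1 and Ifit2) and in 50.8% of all windows. In Ifit2 the matches to TTCNNNGAA and GGGNNNNNCC overlap. A match is a description of the letters and not a binding site shown by these data.

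Between 34.3% and 37.2% of probes were above background in the group means. All 7 macrophage markers on the array were detected on all 12 arrays, with a summed linear signal of 82795 to 83698 in cyclodextrin cells, 77163 to 83433 in HDL cells, 84140 to 86865 in PBS cells with LPS and 56814 to 60303 in PBS cells without LPS. Of 6 markers of plasmacytoid dendritic cells, which secrete interferon, Pacsin1, Ly6d, Ccr9 and Klk1 were detected on 0 arrays. Tcf4 was detected throughout. Siglech was detected on all 3 PBS LPS arrays, on some but not all PBS arrays without LPS, and on none of the cyclodextrin or HDL arrays. Neither gene passed the limma threshold given below in HDL or cyclodextrin cells against PBS cells with LPS. The list's summed signal was 8016 to 8399.7 in cyclodextrin cells, 7246 to 8750.4 in HDL cells, 7928 to 8774 in PBS cells with LPS and 2541 to 3040 in PBS cells without LPS. Among 34 genes listed for other cell types, the fibroblast collagens Col1a1, Col1a2 and Col3a1 and the T cell genes Cd3d, Cd3e and Cd3g were detected on 0 arrays. Prf1 of the T and NK cell list, Cd79b of the B cell list and Pf4 of the megakaryocyte list were detected on all 12. In the dendritic cell list Itgax was detected on all PBS LPS and HDL arrays and on some arrays of the other groups. Flt3 and Cd209a of that list were detected on 0 arrays. In the neutrophil list Ltf was detected on all 3 arrays without LPS and on 0 with it, and Elane and Mpo on 0. The mast cell and basophil list summed to 4549 to 5109.6 in cyclodextrin cells, 4798 to 5717 in HDL cells, 4966 to 5679 in PBS cells with LPS and 257 to 277 in PBS cells without LPS. Of that list Hdc was detected on all arrays with LPS and on 0 without, and Kit on the 3 without LPS and on 0 with it. The summed signal of the fibroblast list was 346 to 462 in cyclodextrin cells, 388 to 419 in HDL cells, 334 to 360.3 in PBS cells with LPS and 155 to 162 in PBS cells without LPS, with Lox detected on all arrays with LPS and Dcn on those of HDL and PBS cells. The part of any of these cells in the results was not tested.

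LPS raised 9 of the 10 genes in PBS cells. The largest change, 235-fold, was that of Oasl1, a brake on translation of the interferon regulator Irf7. By their brightest probes Mx2, Mx1, Ifit2 and Ifit3 rose by 174-fold to 61.1-fold, and Oasl2, Oas1a and Oas3 by 11.1-fold to 13.2-fold, with Oas2 just below that. Ifit1, the founding IFIT gene, could not be read, because its only probe was above background on 0 of 12 arrays. All 16 probes that passed the detection filter were called higher and 0 lower, where 23.1% of the 15497 probes tested were called higher and 34.7% lower. Probe 3 of Oasl1 and probe 2 of Oas3 were detected on 0 arrays without LPS. These probes passed the filter only through arrays with LPS, so their direction was close to fixed and adds little to the counts. A probe was called when its limma p, adjusted over those 15497 probes by the Benjamini-Hochberg method, was under 0.05. On all 16 the PBS LPS arrays lay above the PBS arrays without LPS, a pattern seen in 25.9% of tested probes. The median difference was 6.25 on the log2 scale over the 16 probes, 5.94 with the 2 probes undetected without LPS at their bound, and -0.11 over all tested probes. A bulk RNA level cannot tell more cells that express a gene from more RNA per cell.

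**Figure D1:**
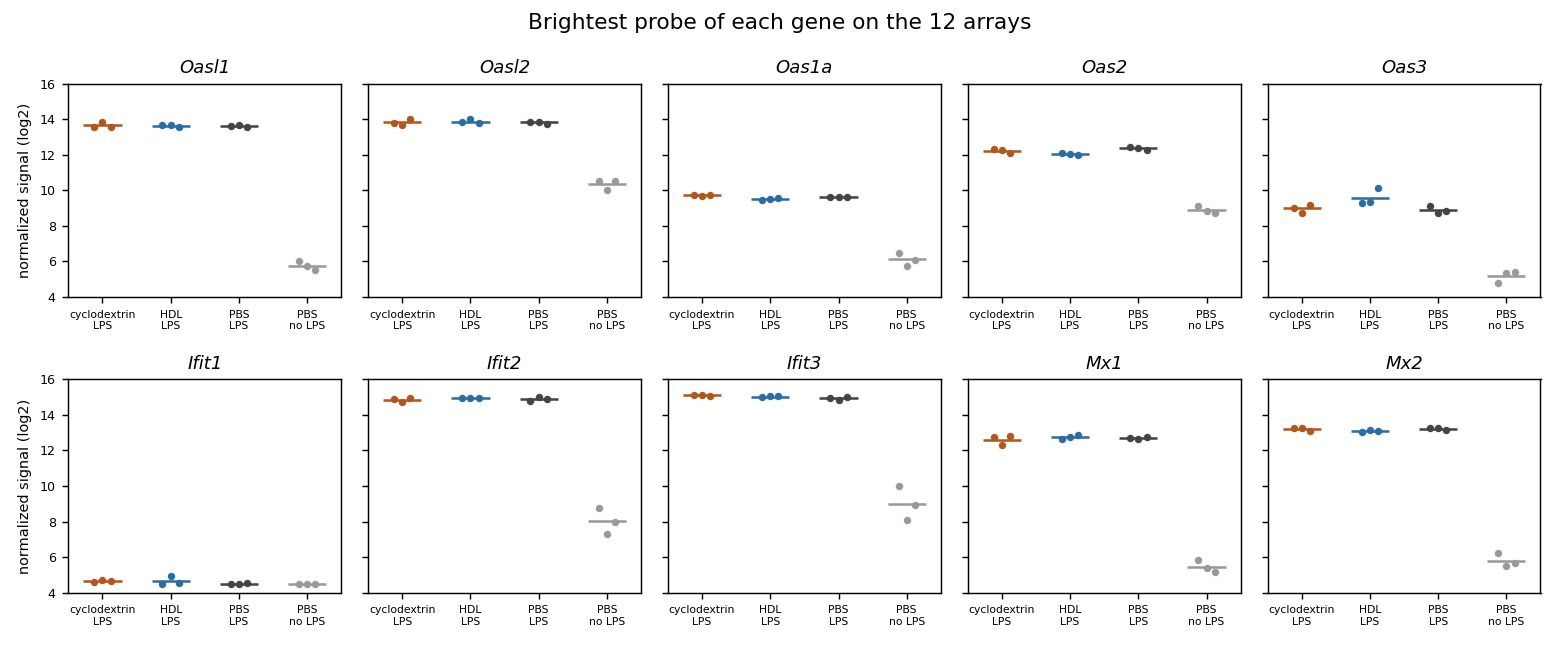
Normalized log2 signal (vertical axis) of the brightest probe of each member, with 1 point per array and a bar at the group mean, for cyclodextrin with LPS, HDL with LPS, PBS with LPS and PBS without LPS from left to right. In every gene except Ifit1 the 9 arrays with LPS sit together above the 3 arrays without it.

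Among the OAS genes, Oas1a, which encodes an active 2-5A synthetase, had log2 signals of 9.61, 9.64 and 9.59 in PBS cells with LPS, against 6.49, 5.74 and 6.09 in PBS cells without LPS. The groups were far apart, with a difference of 3.51 ± 0.15 (SE; limma adjusted p = 4.22e-11). Oas2, whose protein is built of a pair of OAS units, had 12.42, 12.36 and 12.29 with LPS, against 9.13, 8.84 and 8.72 without. Its signal was above background in resting cells too and rose by 3.46 ± 0.12 (adjusted p = 4.39e-12). Oas3, the largest of the OAS proteins, had 9.12, 8.75 and 8.83 on probe 1 with LPS, against 4.78, 5.35 and 5.40 without, where it was detected on 2 of 3 arrays. The difference was 3.72 ± 0.22 (adjusted p = 1.67e-09). Probe 2 of Oas3 was dim everywhere. It was detected on 2 of 3 arrays with LPS and on 0 of 3 without, so LPS cells had at least 1.07-fold more signal (adjusted p = 0.0153, and 0.0579 without the detection filter).

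The OAS-like genes, whose products lack 2-5A synthesis in the case of Oasl1, split by size of response. Oasl1 had 13.63, 13.67 and 13.57 on probe 1 in PBS cells with LPS, against 6.01, 5.73 and 5.49 without LPS. The difference of 7.88 ± 0.14 (adjusted p = 1.97e-15) was the largest fitted value among the members. Probe 2 gave 7.67 ± 0.13, and probe 3, undetected without LPS, gave a rise of at least 61.6-fold. Oasl2, which keeps enzyme activity in the mouse, had 13.86, 13.86 and 13.73 on probe 1 with LPS, against 10.50, 10.01 and 10.50 without. Its 3 probes gave differences of 3.48 ± 0.14, 4.60 ± 0.15 and 3.63 ± 0.23, with probe 3 detected on 1 of 3 arrays without LPS. Probes of Oasl2 thus differed by up to 1.12 among themselves on the log2 scale. Probe 3 of Oasl1 gives only a bound, so only its probes 1 and 2 (7.88 and 7.67) can be set side by side. The 4 values from 3.46 to 3.72 of Oas1a, Oas2, Oas3 and Oasl2 differ from each other by less than the 1.12 of Oasl2.

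Ifit2, an RNA-binding protein tied to translation and cell death, had 14.793, 15.003 and 14.919 on probe 1 in PBS cells with LPS, against 8.74, 7.30 and 7.99 without LPS. The difference was 6.89 ± 0.24 (adjusted p = 4.75e-12), and probe 2 gave 6.78 ± 0.23. Ifit3, a partner that in human cells stabilises IFIT1, had 14.96, 14.87 and 14.99 on probe 1 with LPS, against 9.98, 8.10 and 8.94 without. The difference was 5.93 ± 0.30 (adjusted p = 3.40e-10) on probe 1 and 6.58 ± 0.35 on probe 2. The groups did not overlap on any of these 4 probes, but the arrays without LPS lay up to 1.89 apart on probe 1 of Ifit3. Quantile normalization gave each array the same highest log2 signal, 15.51. Probe 1 of Ifit2 and of Ifit3 lay not far below it under LPS, and saturation of the signal was not tested.

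Mx1, which in mice acts against influenza virus in the nucleus, had 12.70, 12.65 and 12.78 in PBS cells with LPS, against 5.81, 5.39 and 5.14 without LPS, where it was detected on 2 of 3 arrays. The difference was 7.26 ± 0.17 (adjusted p = 4.73e-14). Mx2, a cytoplasmic antiviral relative, had 13.27, 13.27 and 13.15 with LPS, against 6.21, 5.49 and 5.68 without. It rose 174-fold (7.44 ± 0.15, adjusted p = 1.34e-14). Both genes thus gave abundant RNA from loci that the reference annotation calls pseudogenes, and the arrays do not measure protein.

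**Figure D2:**
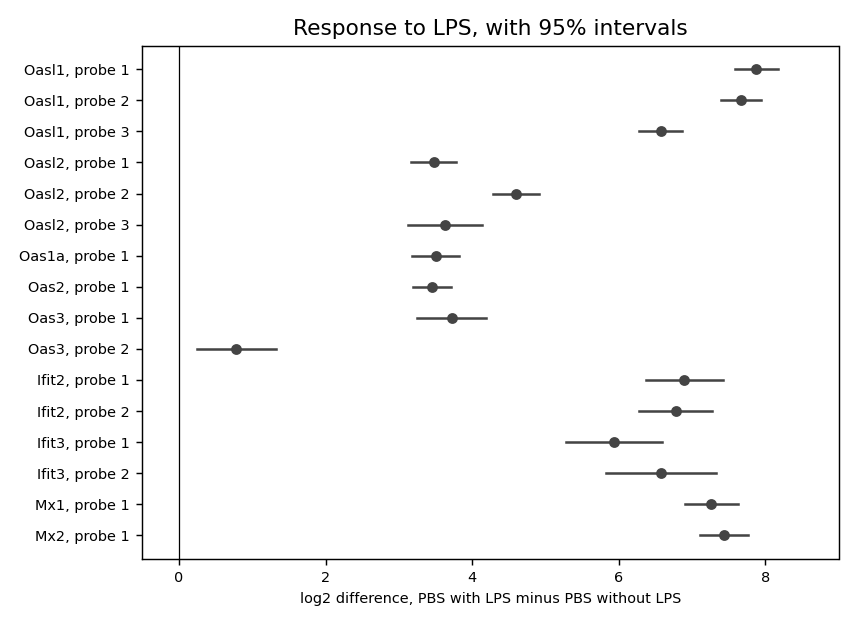
Log2 difference (horizontal axis), PBS with LPS minus PBS without LPS, for the 16 tested probes, with 95% intervals from limma; filled points passed the threshold. All 16 intervals lie above 0, and together they run from 0.24 to 8.17.

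Of the genes with a promoter entry, those with an ISRE core in the window rose by 3.51 (Oas1a), 3.72 (Oas3) and 5.93 (Ifit3) on the log2 scale by probe 1. Those without a match rose by 3.48 (Oasl2), 6.89 (Ifit2) and 7.88 (Oasl1). The 2 sets of values overlapped.

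Prior HDL left the LPS levels of the members close to those of PBS cells. None of the 16 probes was called higher or lower by limma (0.394% and 0.465% of all tested probes were), and 2 had an unadjusted p under 0.05. The share of all tested probes at that unadjusted level was not counted, here or in the comparisons that follow. Differences ran from -0.33 to 0.69, with a median of 0.06, against 0.00 over all tested probes. The 95% interval stayed within 2-fold either way for 15 of the 16 probes and within 1.5-fold for 11. The HDL and PBS LPS arrays did not overlap on 5 of 16 probes, 2 above and 3 below, where 24.4% of all tested probes did not overlap.

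The 2 probes with an unadjusted p under 0.05 belong to the OAS group and point in opposite directions. Oas3 had 9.31, 9.34 and 10.11 on probe 1 in HDL cells with LPS, against 9.12, 8.75 and 8.83 in PBS cells with LPS. All HDL arrays lay above all PBS arrays, and replicate 18 stood furthest out. The difference was 0.69 ± 0.22 (95% interval 0.22 to 1.16, limma adjusted p = 0.142), and 0.43 without that replicate. On probe 2 of Oas3 replicate 18 was again the highest, at 6.45, above the 5.26 to 5.41 of PBS cells with LPS. The other HDL arrays, at 5.20 and 5.21, lay below them. Oas2 had 12.07, 12.02 and 11.98 in HDL cells, against 12.42, 12.36 and 12.29 in PBS cells with LPS. All HDL arrays lay below all PBS arrays by a small step, a difference of -0.33 ± 0.12 (interval -0.59 to -0.07, adjusted p = 0.196).

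The other members differed less. Oas1a had 9.45, 9.54 and 9.56 in HDL cells, against 9.61, 9.64 and 9.59 in PBS cells with LPS, a difference of -0.10 ± 0.15 without overlap. Mx2 had 13.03, 13.14 and 13.11 in HDL cells, against 13.27, 13.27 and 13.15 in PBS cells with LPS, a difference of -0.14 ± 0.15 that also had no overlap. Mx1 differed by 0.06 ± 0.17, with overlap, so the sign was not shared within the Mx pair. Ifit3 had 13.05, 13.04 and 13.16 on probe 2 in HDL cells, against 12.93, 12.89 and 13.03 in PBS cells with LPS, all above but by 0.13 ± 0.35. Probe 1 of Ifit3 differed by 0.09 ± 0.30 and probe 1 of Ifit2 by 0.05 ± 0.24. Oasl1 and Oasl2 differed by 0.01 ± 0.14 and 0.05 ± 0.14 on probe 1.

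Prior cyclodextrin also left the LPS levels of the members close to those of PBS cells. None of the 16 probes was called in either direction (1.94% of all tested probes were called higher and 2.25% lower), and 0 had an unadjusted p under 0.05 in limma. Differences ran from -0.13 for Oas2 to 0.23 for probe 3 of Oasl2, with a median of 0.05, against -0.01 over all tested probes. All 16 intervals stayed within 2-fold and 13 within 1.5-fold. Cyclodextrin arrays lay above the PBS LPS arrays on 3 probes and below on 0, where 25.2% of all tested probes did not overlap. Those 3 were probe 1 of Ifit3, Oas1a and probe 3 of Oasl1.

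Ifit3 had 15.12, 15.12 and 15.06 on probe 1 in cyclodextrin cells, against 14.96, 14.87 and 14.99 in PBS cells with LPS, a difference of 0.16 ± 0.30. Oas1a had 9.75, 9.66 and 9.76 in cyclodextrin cells, against 9.61, 9.64 and 9.59 in PBS cells with LPS, a difference of 0.11 ± 0.15. Both steps were small beside the rises under LPS. Oas3, the member with the largest difference between HDL and PBS cells, had 9.03, 8.71 and 9.19 on probe 1 after cyclodextrin and overlapped PBS cells with LPS (0.08 ± 0.22).

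Set against each other, the 2 pretreatments differed in time of contact as well as in agent, so the values stand side by side without matching. None of the 16 probes was called (0.89% of all tested probes were called higher and 1.23% lower in cyclodextrin cells), and 1 had an unadjusted p under 0.05 in limma. That probe was probe 1 of Oas3, lower on every cyclodextrin array than on every HDL array, with a difference of -0.61 ± 0.22 (interval -1.08 to -0.14, adjusted p = 0.157). Without HDL replicate 18 the difference was -0.35, and with median scaling of the arrays it was -0.80 and called (adjusted p = 0.0297). Cyclodextrin arrays lay above HDL arrays for Oas1a and Oas2, each with a difference of 0.20, so 3 of 16 probes did not overlap, where 23.2% of all tested probes did not. The interval stayed within 2-fold for 15 of the 16 probes and within 1.5-fold for 10.

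**Figure D3:**
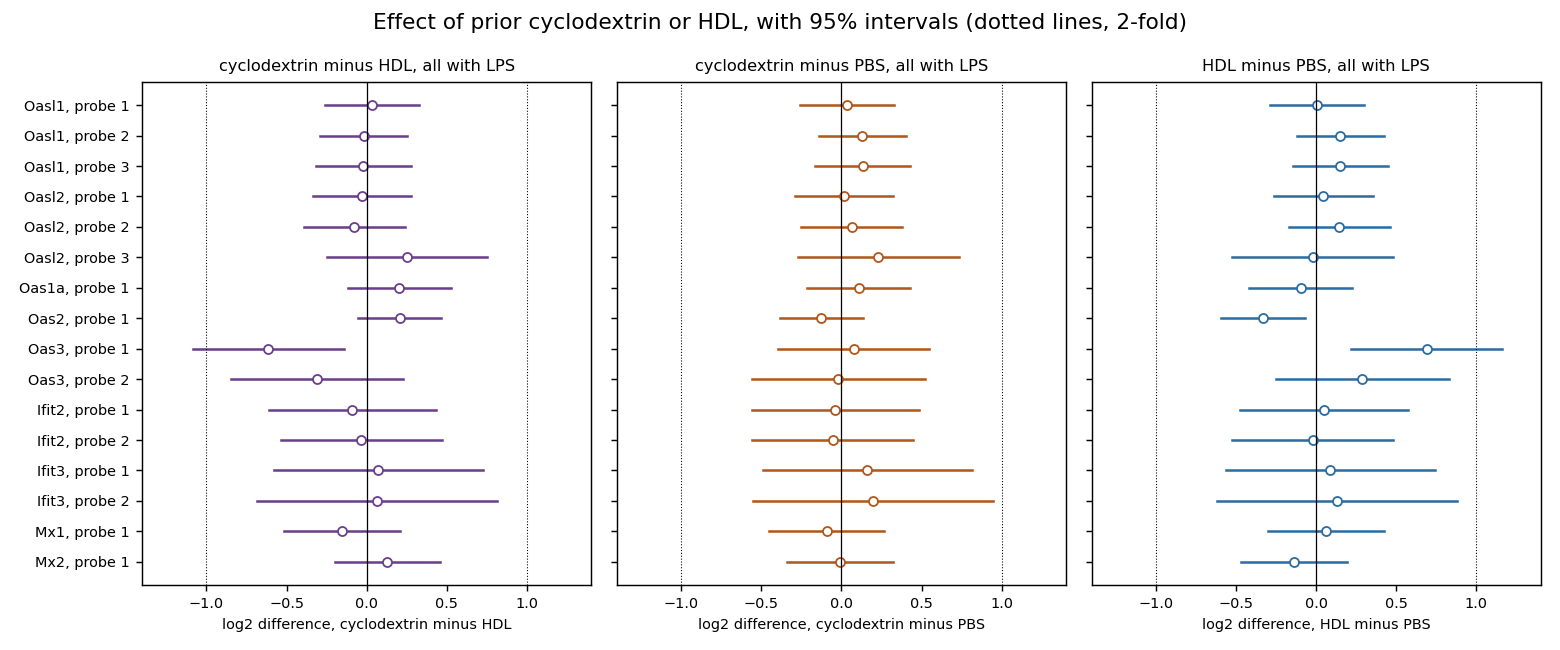
Log2 differences (horizontal axes) of the 16 tested probes under LPS, with 95% intervals from limma, for cyclodextrin minus HDL, cyclodextrin minus PBS and HDL minus PBS; open points did not pass the threshold, and dotted lines mark 2-fold. Probe 1 of Oas3 lies farthest from 0 in the panels that involve HDL, at -0.61 and 0.69.

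All 9 arrays with LPS lay above the 3 without it on all 16 probes of the 9 genes that could be read, which was so for 20.5% of all tested probes. Among the 16 are probe 3 of Oasl1 and probe 2 of Oas3, which passed the filter only through arrays with LPS. Within the LPS arrays the order of cyclodextrin, HDL and PBS cells changed from gene to gene, and no pair of neighbours differed past the threshold.

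The spread between arrays was itself uneven for these genes. In PBS cells without LPS the median SD of the 16 probes was 0.31 on the log2 scale, against a median of 0.17 over all tested probes. It was 0.15 in cyclodextrin cells, 0.07 in HDL cells and 0.07 in PBS cells with LPS, where all tested probes had medians of 0.15, 0.15 and 0.13. Ifit2 and Ifit3 spread most at rest, with SDs of 0.72 and 0.69 on the probes of Ifit2 and 0.95 and 1.08 on those of Ifit3. Under LPS the SDs of these 4 probes were 0.02 to 0.22. Replicate 1 without LPS was the highest of its group on 11 of the 16 probes and on 37.7% of all tested probes. Replicate 2 was the lowest on 9 of the 16, and its share over all tested probes was not counted. The fit over all 12 arrays shares 1 spread per probe, so the resting arrays widen the intervals of Ifit2 and Ifit3 in the comparisons under LPS. In a fit of the 2 groups alone, the HDL interval of probe 1 of Ifit3 was -0.14 to 0.32, against -0.56 to 0.74 over all arrays.

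**Figure D4:**
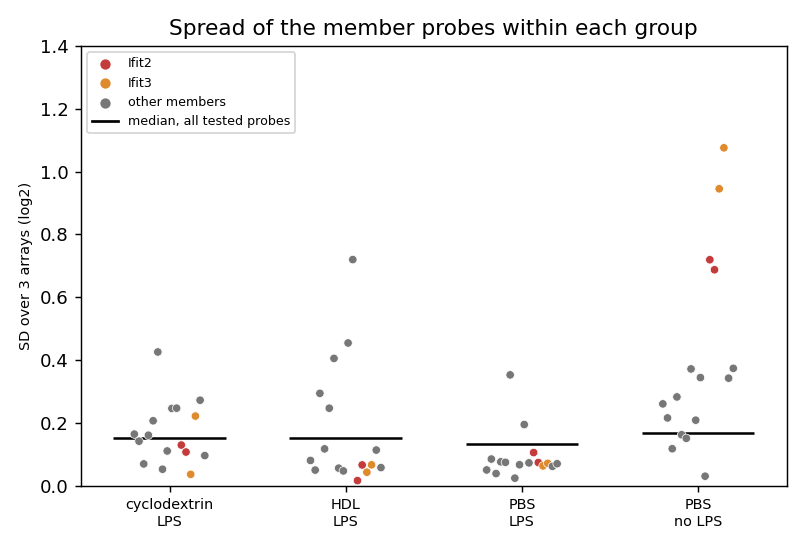
SD over the 3 arrays of a group (vertical axis, log2), with 1 point per tested member probe, for cyclodextrin with LPS, HDL with LPS, PBS with LPS and PBS without LPS from left to right; the black line is the median SD of all tested probes. The probes of Ifit2 and Ifit3 stand at 0.69 to 1.08 in PBS cells without LPS and at or below 0.22 in the groups with LPS.

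Upstream of these genes, LPS raised most of the listed signal carriers. Over all tested probes 23.1% were called higher under LPS and 34.7% lower. Of 8 genes from interferon-beta to ISGF3, 6 were tested and all 6 were called higher (median 1.57, against -0.11 over all tested probes). Stat2 rose by 3.51 ± 0.15 and Jak1, a kinase of the receptor, by 1.20 ± 0.16. Ifnb1, the interferon-beta gene, had 7.74, 7.59 and 8.01 in PBS cells with LPS and was detected on 0 of 3 arrays without it, a rise of at least 5.82-fold. In the TLR4 to IRF3 list 8 of 10 tested genes were higher and 1 lower (median 0.92), and with median scaling of the arrays 6 were higher and 2 lower. Irf7, the amplifier of interferon production, rose by 6.24 ± 0.20, and Irf3, the factor present before stimulation, fell by 0.69 (SE 0.12, limma adjusted p = 0.000146). Of 7 brakes on the pathway, 5 rose and 0 fell. Socs3 differed by 8.13 ± 0.16, while Pias1 differed by -0.05 ± 0.11.

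Few of these genes were called after the compounds. Under limma 0 of the 44 pathway genes were called after HDL, with 5 at an unadjusted p under 0.05, and 1 was called after cyclodextrin, with 4 at that level. How many of all tested probes reached that unadjusted level was not counted. Over all tested probes 0.394% were called higher and 0.465% lower after HDL, and 1.94% higher and 2.25% lower after cyclodextrin. Over the 23 alternative settings, 7 of 1010 values gained a call after HDL and 9 of 1010 after cyclodextrin. Those 9 were all of Irf1, named here after its values were seen, which differed by 0.44 (adjusted p = 0.0607, with a range of 0.0114 to 0.206 over those settings). The gene called after cyclodextrin was Ifnb1, with 8.49, 8.35 and 8.92 in cyclodextrin cells, against 7.74, 7.59 and 8.01 in PBS cells with LPS. Its groups did not overlap, and the difference was 0.81 ± 0.16 (limma adjusted p = 0.0108, and 0.0563 without replicate 8 of PBS with LPS). After HDL, Ifnb1 had 8.19, 8.21 and 7.90, which overlapped PBS cells (0.32 ± 0.16, adjusted p = 0.333). The test of cyclodextrin against HDL for Ifnb1 gave 0.49 ± 0.16 (adjusted p = 0.118), so the compounds were not shown to differ. By that fit the interferon transcript was 1.75-fold higher in cyclodextrin cells than in PBS cells with LPS, and 0 of the 16 antiviral probes passed the threshold. Whether the antiviral probes responded otherwise than Ifnb1 was not tested. Socs1, which blocks JAK kinases, had 7.83, 7.98 and 8.07 in cyclodextrin cells, against 7.51, 7.36 and 7.21 in HDL cells. It was called higher by 0.60 ± 0.12 (adjusted p = 0.0242) in that comparison, with no overlap, and 6 of the alternative settings ended the call. Socs1 was the 1 call among the 44 pathway genes there, where 0.89% of all tested probes were called higher and 1.23% lower.

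**Figure D5:**
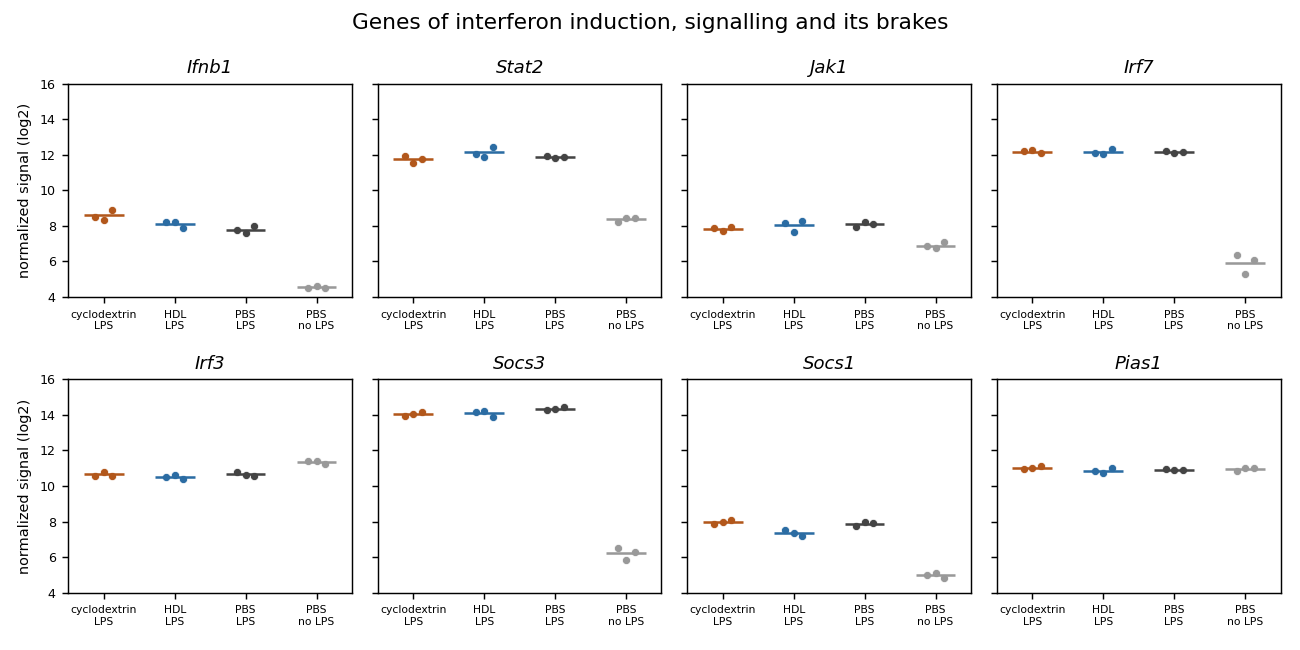
Normalized log2 signal (vertical axis) of 8 genes of interferon induction, signalling and its brakes, with 1 point per array and a bar at the group mean, for cyclodextrin with LPS, HDL with LPS, PBS with LPS and PBS without LPS from left to right. Ifnb1 is the gene whose cyclodextrin arrays, from 8.35 to 8.92, all lie above its PBS LPS arrays, from 7.59 to 8.01, past the threshold.

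Around the members in each pathway the responses to LPS were as follows, where 23.1% of all tested probes were called higher and 34.7% lower. Of the double-stranded RNA sensors and effectors, 8 of 9 were higher and 1 lower (median 2.51). Ddx58, which encodes the sensor RIG-I, was higher by 4.27 ± 0.14, and Mavs, the adaptor it signals through, fell by 0.39 (SE 0.12). The dynamin relatives of Mx, which shape membranes, were higher in 1 of 4 tested cases (Dnm1l, 0.40 ± 0.12) and lower in 0. With median scaling 0 were higher and 1 lower, the lowest, Mfn1, which differed by -0.22 ± 0.14 over the quantile-normalized arrays and by -0.61 with that scaling.

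The paralogs of the members that could be tested were higher under LPS too, as were 23.1% of all tested probes. All 4 tested Oas1 paralogs were higher, from Oas1d (1.99 ± 0.13) to Oas1b (3.64 ± 0.13, detected on 1 of 3 arrays without LPS), with a median of 2.23. Both tested IFIT relatives were higher. Ifit1bl1, whose gene lies between Ifit2 and Ifit1, was undetected without LPS and at least 278-fold higher with it, and Ifit1bl2 was at least 1.44-fold higher. In none of these paralog lists was a gene called after HDL or cyclodextrin. Genes of the Oas1 group, and Ifit3 with Ifit3b, are close copies of each other, and how far their probes share target RNA was not tested.

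Over the genes that are no members, the 5 whose mean responses lay nearest the median of the members were Usp18, Gm18852, Ifi214, Enpp4 and Cd40. The measure was the Euclidean distance over the 3 differences from PBS cells without LPS, so all distances share those 3 arrays. The members' median differences were 6.09 in cyclodextrin cells, 6.02 in HDL cells and 5.93 in PBS cells with LPS. Usp18, a protease that removes ISG15 and damps the interferon receptor, had 6.12, 6.08 and 5.98 in the same order, a distance of 0.08. Cd40, a co-stimulatory receptor, was the fifth at a distance of 0.26. Among the members themselves, Ifit3 was the median in all 3 differences, so its distance of 0.00 was fixed by the measure. The next member, Ifit2, lay at 1.53 and Oas2 farthest, at 4.71. The 5 genes thus lay near Ifit3, and every other member lay farther from the median than Cd40 did.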

How the data were processed

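The authors exported a non-normalized signal and a detection p-value per probe with GenomeStudio, per the submitters' processing notes (no version given), and deposited a table of processed values too. The decimal mark was missing from most values of either table. Of 204 member values, 56 had kept it. The place was set by the detection p-value or the digits for 51 and, for 97, by the curve of processed against non-normalized values on each array. When 6086 known bright values of all probes were hidden and placed again, 0 came out wrong. That test guided the placing rule, so it is not an independent error rate. The planned test assumed intact intensities and was run on the rebuilt ones.

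Signals were background corrected from the detection p-values and quantile normalized (neqc, offset 16, limma 3.58.1, R 4.3.3, with Python 3.11.15 for the rebuilding). A probe passed with a detection p under 0.05 on at least 3 of 12 arrays, and 15497 passing probes had 1 gene symbol. A single two-sided limma model over all arrays (8 residual and 6.33 prior degrees of freedom) gave every adjusted p-value. Where a probe was undetected on all arrays of 1 group, the fold is a bound against the lowest detected signal. The method was tested on simulated data. The number of arrays limits the precision.

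The members and gene lists were chosen with earlier results of these data known. Named from the lists were genes called after a compound and, under LPS, the highest and lowest. Some listed genes are not reported here. Alternatives covered normalization, background, filters, weights, variance prior, the authors' processed values and each array left out.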

Additional observations from a re-analysis of the deposited data

Results flagged for a closer look

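Socs1, which encodes a protein that blocks the kinases of the interferon receptor, differed between the 2 pretreatments in a direct test. It was higher by 0.60 ± 0.12 on the log2 scale in cyclodextrin cells than in HDL cells under LPS (limma adjusted p = 0.0242, with a range of 0.0138 to 0.105 over the alternative settings), and every cyclodextrin array lay above every HDL array. It was lower in HDL cells than in PBS cells with LPS by a log2 difference of -0.51 (adjusted p = 0.0679, with a range of 0.0361 to 0.225 over the 23 alternative settings, 6 of which called it). None of the 16 member probes was called in the test of cyclodextrin against HDL. Socs1 was the 1 call among the 44 pathway genes in that test, where 0.89% of all tested probes were called higher and 1.23% lower. Groups of 3 arrays are too small for the test of a lone outlying array, so that test was not run.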

How the results depend on the processing

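Each comparison was repeated under 23 alternative settings, 1 of them chosen after seeing the data (passing probes with or without a gene symbol). No paired analysis was run, because the titles number every RNA differently and so pair no arrays across groups. Whether groups shared animals or cultures is not known. A slide block was not run because the headers give no slides. The count of member probes higher under LPS was 16 with each array left out in turn. It was 9 with 1 probe per gene, where 9 genes were tested. Counts called after HDL or cyclodextrin against PBS were 0 under every setting. In cyclodextrin against HDL, median scaling called 1 probe lower, Oas3, at -0.80 (adjusted p = 0.0297, with a range of 0.0297 to 0.497 over all settings). That scaling moved the median of all probes to -0.40 under LPS, to -0.11 in cyclodextrin against PBS and to -0.15 in cyclodextrin against HDL, where the members ran from 0.78 to 7.71, from -0.23 to 0.095 and from -0.80 to 0.086. It turned Abce1, a ribosome recycling factor of the pathway lists, to -0.45 and Ticam2, an adaptor of TLR4, to -0.021 under LPS. Probe 2 of Oas3 lost its LPS call without the detection filter (adjusted p = 0.0579). Of 1440 member values, 56 that were not called took the other sign, with values up to 0.21 from 0, and 0 called values did. Signal over background limits Ifit1, probe 2 of Oas3 and the resting levels of Mx1, Oas3, probe 3 of Oasl1 and probe 3 of Oasl2.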

Other observations

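HDL replicate 18 gave the highest value of its group on 9 of the 16 member probes and HDL replicate 16 the lowest on 10, while replicate 18 was highest on 34.2% of all tested probes. How often an array was lowest over all tested probes was not counted. Stat2, a subunit of ISGF3, was also highest on that array, at 12.46 against 12.06 and 11.90. In PBS cells without LPS, replicate 1 was highest on 11 of the 16 member probes and on 37.7% of all tested probes. No label separates these arrays from the others of their groups. Ifit1, whose promoter window holds 2 ISRE cores, had log2 signals of 4.48 to 4.91 over the 12 arrays and was above background on 0 of them.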
